A study of Mus musculus with 4 samples.

Results

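Alveolar macrophages that carried RNA of the Cre reporter tdTomato were described in dissociated lung tumors of mice. They were chosen from measured UMI counts (unique molecular identifiers, each counting 1 captured RNA molecule). A cell had to detect at least 200 genes and to pass a limit on its mitochondrial share, which 407 cells failed, then to hold at least 4 UMIs over Marco, Fabp1, Ctsk and Atp6v0d2 together, fewer than 10 over C1qa, C1qb and C1qc, fewer than 10 of Sftpc, and at least 5 of TdTomato. Of 20351 cells in the table, 19892 passed the cell filters and 1804 met the whole rule, or 9.07% of the filtered cells (exact binomial 95% interval 8.67 to 9.48). The genes of the rule are therefore described below and support nothing.

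Tumors came from 2 Restored and 2 Non-Restored female mice. All carried Lkb1XTR/XTR, with Rosa26LSL-tdTomato/FLPo-ERT2 in Restored mice and Rosa26LSL-tdTomato in Non-Restored mice. All 4 mice received intratracheal Lenti-Cre, carried tumors for 16 weeks and, per the labels, were given tamoxifen for 2 weeks; their ages are not in the labels. The viable cells were sequenced by 3′ single-cell RNA-seq and were deposited as 1 matrix in which cells are not tied to mice, so that it counted as 1 sample and Restored and Non-Restored mice were not compared. In these mice Cre removes a stop cassette before tdTomato and inverts a gene trap in Lkb1 (Stk11) that ends its transcript and makes GFP, while FLPo, active only with tamoxifen, removes that trap. In Restored mice FLPo-ERT2 occupies the Rosa26 allele opposite tdTomato, and the number of tdTomato alleles in Non-Restored mice is not given, so a reporter level and a mouse's cohort cannot be told apart. Neither the labels nor the methods read here name the promoter that drove Cre.

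Alveolar macrophages are the resident phagocytes of the airspace. They arise from fetal precursors under GM-CSF, TGF-β and the lipid-sensing factor PPARγ, renew themselves in place, and clear surfactant lipid and inhaled particles through large lysosomes. Interstitial macrophages, which make complement C1q and present antigen on MHC class II, and blood-derived monocytes are the other mononuclear phagocytes of the lung.

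3 promoters bear on gene groups described below, and their sequence was taken from RefSeq (GRCm38.p6, the build called mm10) as the bases directly before the start of each gene, 5′ to 3′ on the gene's strand. H2-Aa and H2-Eb1 encode an α and a β chain of MHC class II, a group with lower levels in members than in reporter-free macrophages. Capitals mark CTGATTGG, the Y box of class II promoters, whose letters include ATTGG, the reverse strand of CCAAT. The H2-Aa window is chr17:34287824-34287943 on the minus strand and the H2-Eb1 window is chr17:34305747-34305866 on the plus strand. Lamp1 encodes a main membrane protein of the lysosome, and capitals in its window, chr8:13159061-13159160 on the plus strand, mark CACGTG, the palindromic E-box core recognized by factors of the MiT/TFE family.
H2-Aa: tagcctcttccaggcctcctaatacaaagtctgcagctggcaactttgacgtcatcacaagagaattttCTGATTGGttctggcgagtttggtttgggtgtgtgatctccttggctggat
H2-Eb1: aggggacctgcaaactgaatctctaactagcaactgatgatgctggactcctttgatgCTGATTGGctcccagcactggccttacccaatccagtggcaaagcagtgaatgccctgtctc
Lamp1: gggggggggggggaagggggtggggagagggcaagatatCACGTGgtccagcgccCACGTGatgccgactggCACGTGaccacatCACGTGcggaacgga
The Y box began 51 bases before the start of H2-Aa and 62 before that of H2-Eb1, and the 4 E-boxes of Lamp1 lay between 61 and 15 bases before its start. Over RefSeq windows of 300 bases (250 before to 50 after a start, both strands read), CTGATTGG was found in 4.10% of 32851 windows, in 4.70% of 27025 genes with a window and in 2 of 6 MHC class II genes that had one. CACGTG was found in 7.15% of windows, in 8.09% of genes, in 8 of 27 genes of lysosomal proteins and in 4 of 12 genes of V-ATPase subunits. Such a match is a description of the letters only.

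The rule left 2049 alveolar macrophages before the reporter was read. Of these, 1804 (88.0%, 86.6 to 89.4) had at least 5 TdTomato UMIs, 140 (6.83%) had 1 to 4 and are called intermediate, and 105 (5.12%) had none and are called reporter-free. Of 2088 cells that passed the sum of the 4 markers, 27 were left out for C1q and 12 for Sftpc. At the edges of the rule, 35 macrophages held 4 TdTomato UMIs and 41 held 5, while 77 cells that met the other terms had a marker sum of 3 against 84 members with 4. A member held a median of 16 TdTomato UMIs, with quartiles of 11 and 21 and a highest value of 62.

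All 4 markers of the rule were present, though unevenly. Marco, a scavenger receptor for inhaled particles, was seen in 43.5% of members and Fabp1, a fatty acid binding protein, in 53.2%. Ctsk, the protease cathepsin K, was seen in 89.9% and Atp6v0d2, a membrane subunit of the lysosomal proton pump, in 96.7%. All 4 were seen together in 438 members, 3 in 680, 2 in 632 and only 1 in 54. In mm10 Marco lies at chr1:120474538-120505024 (minus strand), Fabp1 at chr6:71199827-71205023 (plus), Ctsk at chr3:95499256-95509362 (plus) and Atp6v0d2 at chr4:19876841-19922605 (minus), each a protein-coding gene.

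Genes outside the rule gave the same label. Levels are in CPM, which sets the UMIs of each gene against 1000000 UMIs of its population, with an exact Poisson 95% interval that covers counting error only. Chil3, a secreted chitinase-like protein typical of these cells (chr3:106147554-106167564, minus strand), stood at 25318 CPM in members, 51.9 in C1q-high macrophages and 1024 in monocytes. Pparg, the lipid-sensing nuclear receptor, stood at 107 CPM (101 to 113) against 2.46 (1.60 to 3.60) in C1q-high macrophages. Siglecf, a sialic acid receptor used to gate these cells, stood at 63.7 CPM (59.0 to 68.6) against 3.78 (2.70 to 5.14). Car4, a membrane carbonic anhydrase, stood at 475 CPM against 1.79. Of the 29 genes listed as alveolar macrophage identity, Ear6, an eosinophil-type ribonuclease, gave no UMI in 1804 members and Ear10 gave 3.

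**Figure D1:**
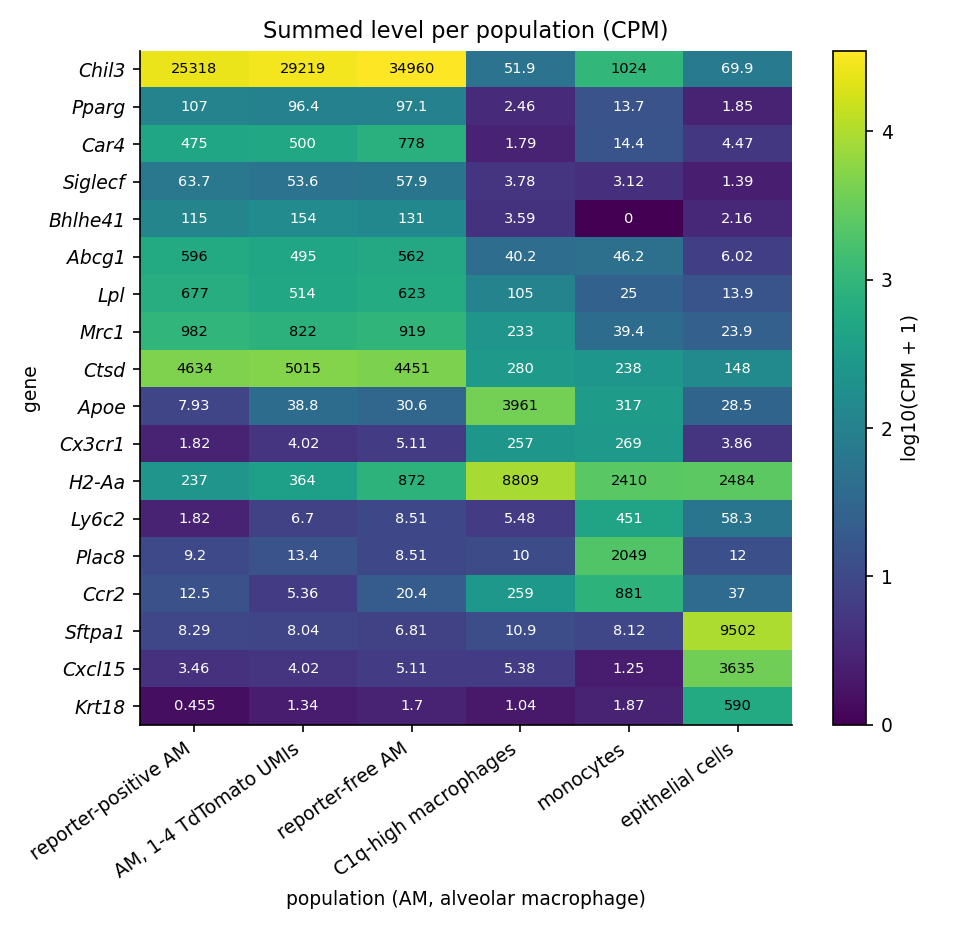
Heat map of 18 marker genes (rows) in members, intermediate, reporter-free and C1q-high macrophages, monocytes and epithelial cells (columns), colored by log10(CPM + 1) with the CPM printed in each cell. Chil3, Pparg and Car4 stood at 25318, 107 and 475 CPM in members and at 51.9, 2.46 and 1.79 in C1q-high macrophages.

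RNA of other lineages was low in members but not absent. A list of 18 epithelial genes summed to 189 CPM in members, 194 in reporter-free macrophages, 949 in C1q-high macrophages and 30164 in epithelial cells. The epithelial cells were themselves chosen in part by Epcam, Krt8 and Krt18. Sftpa1, a surfactant protein of alveolar type II cells, stood at 8.29 CPM in members. Sftpa1 was seen in 4.60% of members and 4.53% of C1q-high macrophages, but Epcam in 3.94% and 46.9%. 7 neutrophil genes summed to 393 CPM in members and 305 in reporter-free macrophages, 10 T or NK cell genes to 33.5 and 40.9, and 7 endothelial genes to 63.6 and 15.3. The B or plasma cell and stromal lists went the other way, at 46.4 CPM in members and 6217 in reporter-free macrophages, and at 3.64 and 514. Scrublet called 28 members as doublets. Members and reporter-free macrophages were of like depth, with medians of 5738.5 and 5765 UMIs a cell, whereas C1q-high macrophages had 4400.5 and monocytes 2945.

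Members were the largest population with the reporter. Of 2943 filtered cells with at least 5 TdTomato UMIs, members made up 61.3%, against 882 epithelial cells, 31 C1q-high macrophages, 4 monocytes and 222 other cells. TdTomato stood at 2776 CPM in members and 447 in intermediate cells, values that the rule fixed, and at 4120 in epithelial cells, 97.5 in C1q-high macrophages and 116 in monocytes. Whether the TdTomato UMIs of C1q-high macrophages and monocytes were free RNA or their own was not tested.

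**Figure D2:**
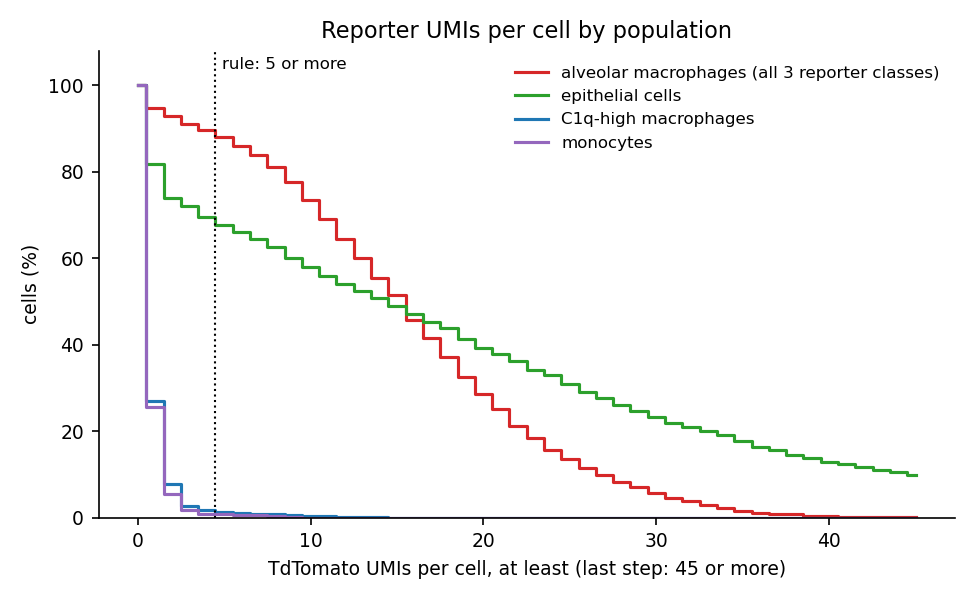
Percent of cells (y axis) with at least the number of TdTomato UMIs on the x axis, for all alveolar macrophages, epithelial cells, C1q-high macrophages and monocytes, with the rule's minimum of 5 as a dotted line. The curve of alveolar macrophages crosses that line at 88.0%, and those of C1q-high macrophages and monocytes lie near 0 there.

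GFP, made by the inverted trap, was also present. Members held 64 GFP UMIs in 61 cells, or 5.83 CPM (4.49 to 7.44), against 0.189 CPM in C1q-high macrophages and 20.5 in epithelial cells. Intermediate and reporter-free macrophages held 1 GFP UMI each. Per 1000 TdTomato UMIs, members held 2.10 GFP UMIs (1.62 to 2.68) and epithelial cells 4.98 (4.17 to 5.90). Since the rule set a TdTomato minimum for members and none for epithelial cells, these ratios are a description only. Stk11, which encodes the kinase LKB1 (chr10:80115803-80130682, plus strand), stood at 17.3 CPM in members, 17.0 in reporter-free macrophages, 20.7 in C1q-high macrophages and 23.8 in epithelial cells.

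Among members, Stk11 RNA was lower where the reporter was higher. Members were ranked by TdTomato CPM and divided into terciles of 602, 601 and 601 cells, from 478 to 2125, 2127 to 3445 and 3451 to 9378 CPM. Stk11 stood at 25.8 CPM (21.2 to 31.1) in the lowest tercile, 15.1 (11.3 to 19.7) in the middle and 8.27 (5.40 to 12.1) in the highest, from 110, 54 and 26 UMIs. The counting intervals of the lowest and highest terciles did not overlap, with a log2 ratio of -1.64 (exact conditional 95% interval -2.32 to -1.02). GFP moved the other way, at 1.17 CPM (0.381 to 2.74), 9.22 and 8.27 (5.40 to 12.1), from 5, 33 and 26 UMIs, and the middle and highest terciles did not differ beyond counting error. Per 1000 TdTomato UMIs, by which the terciles were ranked, GFP stood at 0.792, 3.35 and 1.82. In reporter-free macrophages Stk11 rested on 10 UMIs, and its interval of 8.16 to 31.3 CPM overlapped those of all 3 terciles. Such intervals do not measure spread between mice, and a tercile cannot be told apart from a mouse's cohort.

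Median depth fell over the terciles from 6732.5 to 5657 and 5172 UMIs. With terciles drawn again, after the data had been seen, among members of 3000 to 10000 UMIs, Stk11 stood at 15.2 CPM in the middle and 8.26 in the highest tercile, which had a log2 ratio of -1.48 (-2.18 to -0.82) to the lowest, and GFP stood at 1.04, 9.81 and 8.26 CPM. A comparison of the highest with the lowest tercile over all genes was also added after the data had been seen. Of 3035 genes tested, 13 (0.428%) were past 2-fold higher and 11 (0.362%) past 2-fold lower, where past 2-fold was read from CPM plus 10 among genes of at least 50 CPM in either population. Stk11 itself lay below that level and was not among the genes tested. Gm42418 and AY036118, features known to collect ribosomal RNA reads, and Lars2 were among the 13. Gm42418 stood at 4881 CPM in the lowest and 13354 in the highest tercile, and its part in the other differences was not tested.

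Chemokine and cytokine genes were among the rest of the 13. Cxcl2 and Cxcl1, which draw neutrophils, stood at 2620, 4551 and 5655 CPM and at 109, 225 and 258 from the lowest to the highest tercile. Il1b, the cytokine interleukin-1β, stood at 370, 471 and 753 CPM. Ccl4, Cxcl3, Il1rn, Fpr2, Pilra, Sirpb1c and Tgfbi were the others. Among the 11 that were lower, the growth factor gene Igf1 stood at 65.8, 28.5 and 19.1 CPM and the calprotectin subunit gene S100a9 at 140, 45.8 and 17.2. The 596 S100a9 UMIs of the lowest tercile lay in 36 cells, the highest with 111, and the 54 of the highest tercile in 30. Class II gene H2-Aa stood at 228, 242 and 243 CPM, and Pparg at 102, 110 and 110. In the terciles drawn among members of 3000 to 10000 UMIs, H2-Aa stood at 200, 223 and 248 CPM. Its log2 ratio of highest to lowest was then 0.31 (0.16 to 0.46), and that of H2-Eb1 was 0.10 (-0.09 to 0.29). Over the terciles of all members, class I genes B2m and H2-K1 fell, at 2117, 1646 and 1504 CPM and at 907, 755 and 692.

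**Figure D3:**
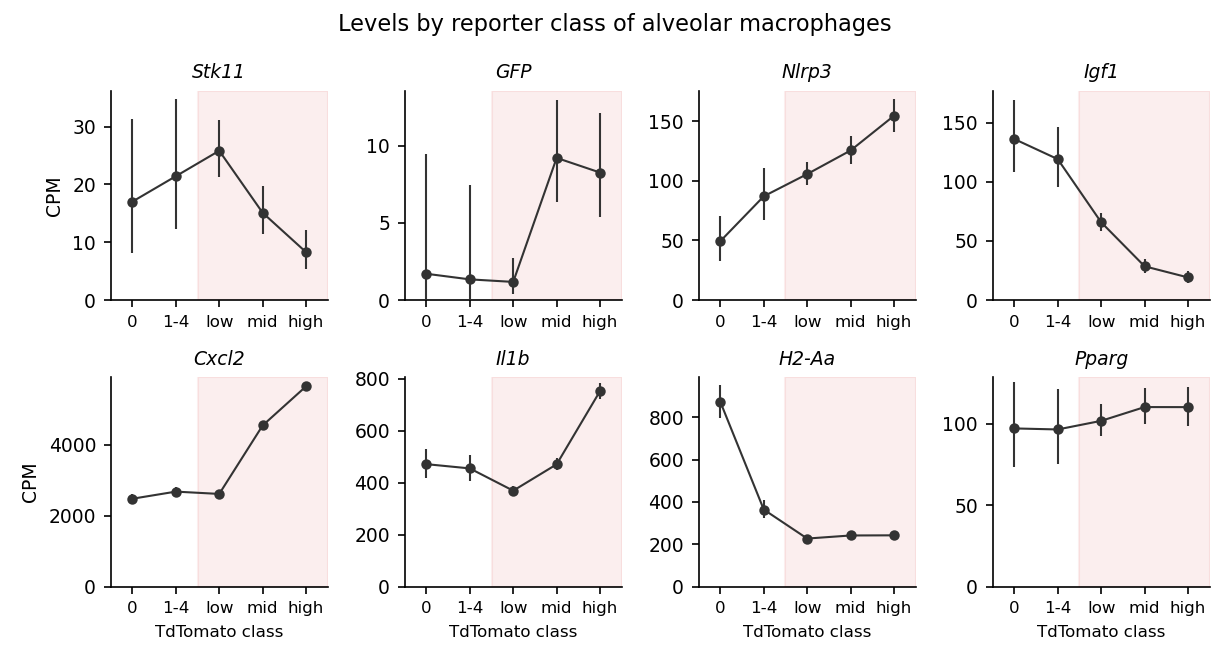
Levels of 8 genes (CPM, linear axes from 0, exact Poisson 95% intervals) in reporter-free macrophages (0), intermediate macrophages (1-4) and the terciles of members ranked by TdTomato (shaded). Stk11 stood at 25.8, 15.1 and 8.27 CPM from the lowest to the highest tercile, and Igf1 at 65.8, 28.5 and 19.1.

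Few genes differed by more than 2-fold between members and reporter-free macrophages. Of 3061 genes tested, 5 (0.163%) were past 2-fold higher in members and 24 (0.784%) past 2-fold lower, with a median log2 ratio over all genes of 0.06. These counts moved with the processing, to 52 higher and 52 lower in cells thinned to 2000 UMIs, to 23 and 79 with no minimum level, and to 4 and 13 without mixed-lineage cells. None of 24 identity genes, 30 lysosomal genes and 15 V-ATPase subunit genes was past 2-fold in either direction. With 1 pooled sample there is no test, and the ratios compare these cells, not mice.

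**Figure D4:**
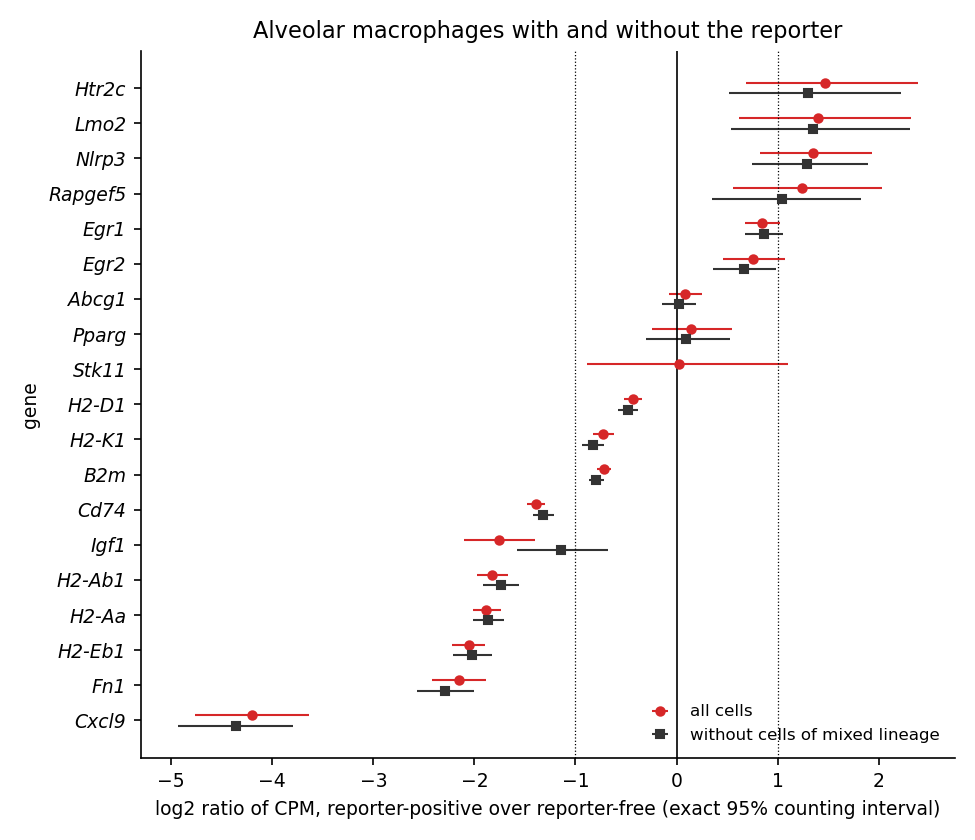
Log2 ratios of CPM, members over reporter-free macrophages, for 19 genes, with exact 95% counting intervals, over all cells (red) and without mixed-lineage cells (black). Dotted lines mark 2-fold, and H2-Aa at -1.88 and H2-Eb1 at -2.06 lie left of it while Pparg and Stk11 lie near 0.

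MHC class II genes stood lower in members. So did all 5 tested genes of the stromal list and both tested genes of the B or plasma list, which rested on few cells as given below, and 2 of 6 interferon-stimulated genes. Of 6 class II genes tested, 4 were past 2-fold lower and none higher, with a median log2 ratio of -1.57. Over all genes tested 0.784% were past 2-fold lower. H2-Aa, whose promoter is shown above, stood at 237 CPM in members and 872 in reporter-free macrophages, a log2 ratio of -1.88 (-2.02 to -1.74). H2-Ab1, encoding the β chain that pairs with it, stood at 193 and 681 CPM. H2-Eb1 stood at 155 and 647 CPM, a log2 ratio of -2.06, and Cd74, the invariant chain that escorts class II to the lysosome, at 731 and 1914. Ciita, the master activator of these genes, stood at 7.01 and 18.7 CPM, below the minimum of 50 CPM for genes tested. Without mixed-lineage cells Ciita rested on 8 UMIs in reporter-free macrophages. Its log2 ratio was then -1.24 (-2.30 to 0.027), an interval that includes 0. H2-DMa, which loads peptide, was near even with a log2 ratio of -0.17.

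Few cells held these class II counts, taken here over the chains H2-Aa, H2-Ab1 and H2-Eb1. In the reporter-free group 47 of 105 cells had such a UMI and 4 cells held 50% of them, the highest with 222. Among members 784 of 1804 cells had one and 68 cells held 50%. When each cell was thinned to 2000 UMIs, 7.72% of members (6.53 to 9.05) held at least 5 UMIs of these chains, against 11.5% of intermediate cells, 13.8% (7.57 to 22.5) of reporter-free macrophages and 98.1% of C1q-high macrophages. At this minimum the intervals of members and reporter-free macrophages overlapped. They also overlapped at a minimum of 2 UMIs, with 18.1% of members (16.4 to 20.0) against 22.3% of reporter-free macrophages (14.4 to 32.1). At a minimum of 10 UMIs they did not, with 2.72% of members (2.02 to 3.58) against 11.7% of reporter-free macrophages (5.99 to 20.0), the latter being 11 of 94 cells. At least 5 Cd74 UMIs were held by 9.22% of members (7.93 to 10.7) and 19.1% of reporter-free macrophages (11.8 to 28.6). These intervals did not overlap either, nor did those for at least 10 Cd74 UMIs. For at least 2 Cd74 UMIs they overlapped, at 22.4% (20.5 to 24.4) and 25.5% (17.1 to 35.6). All these intervals count cells of the pooled matrix and do not measure spread between mice. Without mixed-lineage cells (those with at least 3 UMIs of a T or NK, B or plasma, endothelial, stromal or dendritic list), which took out 96 members and 9 reporter-free macrophages, H2-Aa stood at 218 and 795 CPM and H2-Eb1 at 130 and 528.

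**Figure D5:**
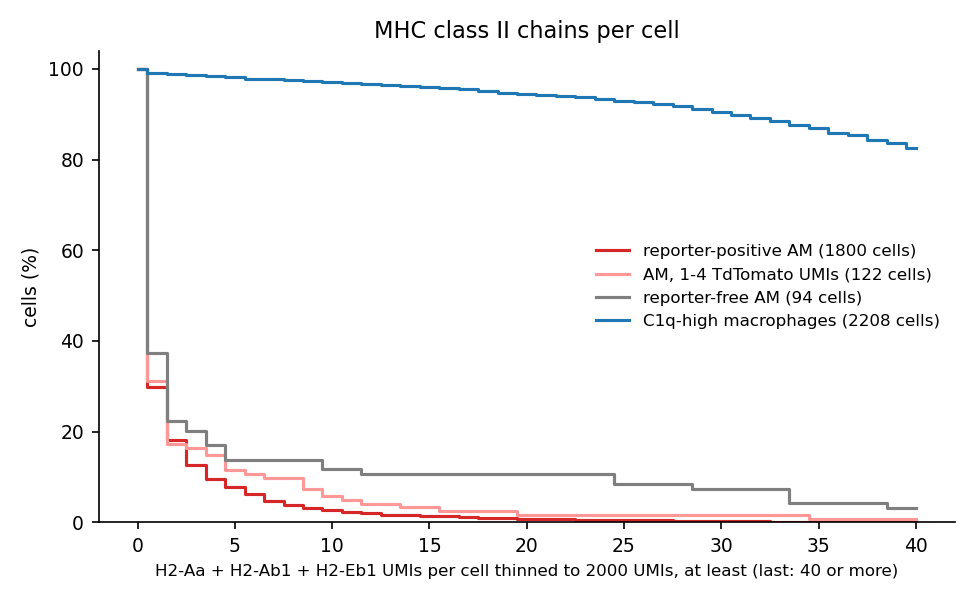
Percent of cells (y axis) with at least the number of H2-Aa, H2-Ab1 and H2-Eb1 UMIs on the x axis, after each cell was thinned to 2000 UMIs, for members, intermediate, reporter-free and C1q-high macrophages. At least 5 were held by 7.72%, 11.5%, 13.8% and 98.1% of cells.

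MHC class I genes stood lower in members by less. None of 8 was past 2-fold, with a median log2 ratio of -0.45. B2m, the shared light chain, stood at 1788 CPM in members and 2946 in reporter-free macrophages, a log2 ratio of -0.72. H2-K1 and H2-D1, heavy chains, stood at 796 and 1314 CPM and at 1361 and 1837. A thinned cell held a median of 7 class I UMIs among members, 9 among intermediate cells and 10 among reporter-free macrophages.

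Interferon and matrix genes added to those lower in members, again from few cells. Cxcl9, an interferon-induced chemokine that draws T cells, stood at 5.10 and 93.7 CPM, and 5 reporter-free cells held its 55 UMIs with 32 in 1 cell. Fn1, fibronectin, stood at 55.0 and 245 CPM, with 2 reporter-free cells holding 50%. Igf1 stood at 40.3 and 136 CPM, with 4 reporter-free cells holding 50%. Without mixed-lineage cells it stood at 41.1 and 90.9 CPM and was no longer past 2-fold on the scale with 10 CPM added. The largest ratios belonged to Igkc, Igha, Jchain and Igkv1-117, immunoglobulin genes, and to Ibsp, Col1a1, Col1a2, Col3a1, Wif1 and Mgp, stromal genes. 1 reporter-free cell held 3036 of the 3050 Igkc UMIs, and the stromal genes rested on 1 or 2 cells.

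Nlrp3, the inflammasome sensor, led the genes higher in members after S100a9. It stood at 126 CPM against 49.4, a log2 ratio of 1.35 (0.82 to 1.94). Htr2c, a serotonin receptor, stood at 61.3 and 22.1 CPM, Lmo2, a transcriptional cofactor, at 58.4 and 22.1, and Rapgef5, an exchange factor for Rap GTPases, at 68.5 and 28.9. Without mixed-lineage cells Rapgef5 stood at 67.6 and 32.9 CPM and was no longer past 2-fold on the scale with 10 CPM added. S100a9 stood at 74.2 and 1.70 CPM, the latter from 1 UMI, and 4 members held 50% of its UMIs. Below 2-fold, the immediate-early factor genes Egr1 and Egr2 stood at 861 against 478 CPM and 271 against 160, and Cxcl2 at 4118 against 2484. The next genes in rank, Srd5a3, Perp, Dnajc13, Ap1g1 and Rnpep, were all within 2-fold on the scale with 10 CPM added. On plain CPM without mixed-lineage cells, Srd5a3, Dnajc13 and Ap1g1 had log2 ratios of 1.20, 1.15 and 1.16. Those of Perp and Rnpep were 0.92 and 0.81.

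Intermediate macrophages lay near members. Of 3039 genes tested, 1 (0.0329%), Cxcl1, was past 2-fold higher in members, at 189 against 76.3 CPM, and 29 (0.954%) were past 2-fold lower. Igf1 stood at 119 CPM in intermediate cells and 40.3 in members, but 2 intermediate cells held 50% of its UMIs, and without mixed-lineage cells it stood at 56.2 and 41.1.

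C1q-high macrophages, the other macrophages of the tumors (2254 cells), differed far more widely. Of 3221 genes tested, 456 (14.2%) were past 2-fold higher in members and 267 (8.29%) past 2-fold lower, with a median log2 ratio of 0.18. 22 of 24 identity genes were higher, and 13 of 15 interstitial macrophage genes were lower. Since C1q set these groups apart, the counts describe the rule's populations and are not evidence for it. The ratios ran up to a log2 of 8.93 for Chil3, and Gpnmb, a lysosomal glycoprotein, stood at 722 against 2.55 CPM. Slpi, a secreted inhibitor of neutrophil elastase, stood at 1001 against 7.74 CPM, and the chemokine Ccl6 at 4606 against 230. Wfdc21, Car4, Sort1, Ms4a8a, Cdc42ep3 and Olr1 completed the 10 highest.

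Antigen presentation and the apolipoprotein Apoe stood at the other end. Apoe was at 7.93 CPM in members and 3961 in C1q-high macrophages. 9 of 10 class II genes were lower, beside 8.29% of all genes tested. H2-Eb1 stood at 155 against 9384 CPM and Cd74 at 731 against 27939. Ccl17, a chemokine for T cells, stood at 13.3 against 2021 CPM. Asgr2, H2-M2, Mgl2, Aif1, H2-Ab1 and Retnla completed the 10 lowest.

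Of 23 genes of lipid uptake and storage, 14 were higher in members and 3 lower, beside 14.2% and 8.29% of all genes tested, although the summed level of the list differed by a log2 ratio of only 0.23. Of 15 genes of surfactant breakdown 8 were higher and 1 lower, and of 12 genes of lipid synthesis and oxidation 3 were higher and 9 within 2-fold. Fabp4, a fatty acid carrier, stood at 178 against 1.04 CPM, Lpl, lipoprotein lipase, at 677 against 105, and Plin2, which coats lipid droplets, at 1216 against 189. The cholesterol exporters split, with Abcg1 at 596 against 40.2 CPM and Abca1 at 2.46 against 57.5. Ppt1 and Lipa, lysosomal lipid hydrolases, stood at 605 against 95.2 CPM and 441 against 72.6.

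Lysosomal genes were higher in part. Of 29 tested, 9 were higher and 2 lower, beside 14.2% and 8.29% of all genes tested. Ctsd, the protease cathepsin D (chr7:142375911-142388038, minus strand), stood at 4634 against 280 CPM and Lamp1 at 1131 against 417. Ctsh, a cathepsin with aminopeptidase activity, was among the lower genes, at 214 against 618 CPM. 4 of 15 V-ATPase subunit genes were higher, Atp6v1a (269 against 68.4 CPM), Atp6v1b2 (264 against 61.8), Atp6v1c1 and Tcirg1, and none was lower.

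Of the MiT/TFE factors, Mitf stood at 62.9 against 15.4 CPM and Tfec at 124 against 7.55, while Tfeb, at 31.9 against 16.8, and Tfe3, at 45.3 against 52.4, were nearer. Among genes shared with osteoclasts, 4 of 6 were higher and 2 lower, beside 14.2% and 8.29% of all genes tested. Dcstamp, a fusion protein of osteoclasts, stood at 9.57 against 301 CPM. Bhlhe41, a transcriptional repressor, stood at 115 against 3.59 CPM, and Csf1r, the M-CSF receptor, at 113 against 553. The GM-CSF receptor chains Csf2rb, at 392 against 262 CPM, and Csf2ra, at 219 against 320, were within 2-fold.

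Chemokines and cytokines went both ways, with 13 of 26 lower in members, 4 higher and 9 within 2-fold. Over all genes tested 8.29% were lower and 14.2% higher, so the 4 higher lay near that share. Il1b stood at 512 against 3022 CPM, and Ccl8 and Ccl12, monocyte attractants, at 0.364 against 152 and 0.364 against 185. Il18, Ccl3, Spp1 and Ccl6 were the 4 that were higher, with Il18, an inflammasome-processed cytokine, at 714 against 37.5 CPM and Spp1, osteopontin, at 439 against 82.9. Cxcl2 was high in both, at 4118 and 5372 CPM. Cd274, which encodes PD-L1, stood at 106 against 22.8 CPM and Sirpa, the receptor for CD47, at 800 against 198.

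Against 512 monocytes, 480 of 3388 genes (14.2%) were past 2-fold higher in members and 425 (12.5%) past 2-fold lower. Plet1, a surface protein of alveolar macrophages, stood at 871 against 14.4 CPM. Gdf15, a stress-induced cytokine, stood at 271 against 1.87 CPM and the engulfment receptor gene Axl at 425 against 8.74. Mertk, a related receptor, stood at 213 CPM in members with no UMI in monocytes. Gpnmb, Nov, Slc7a2, Chil3, Ltc4s and Cd63 completed the 10 highest. All 15 tested monocyte genes were lower in members, as were 7 of 9 interferon-stimulated genes, with Ifitm3, an antiviral membrane protein, at 20.9 against 4442 CPM. Plac8, Ifitm6, S100a9, F13a1, Ccr2, Ly6c2, Adgre5, Hp and Pglyrp1 followed. F13a1 and Ccr2 were among the genes that chose the monocytes. Their levels, and counts of monocyte genes, therefore describe that rule and are not evidence for it. The monocyte group also carried neutrophil RNA, with the 7 neutrophil genes summing to 10974 CPM in it against 393 in members. S100a9 was compared again without 87 of the 512 monocytes, those with at least 3 UMIs over Retnlg, Csf3r and Cxcr2. Its direction did not reverse. The part of that RNA in Hp was not tested.

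Variation among members was concentrated in few genes. After thinning to 2000 UMIs, which 1800 members allowed, 62 of 2877 genes had a variance at least 2 times their mean, and the median ratio was 1.04. S100a9 led with a ratio of 24.7, with UMIs in 2.39% of members and up to 45 in 1 cell. Chil3, with UMIs in every thinned member, had a ratio of 21.4 and a median of 44 UMIs with a highest of 411. Lyz2, lysozyme, came next, and Fth1, the ferritin heavy chain, had a ratio of 12.1 and Cd74 of 9.65.

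For Cd74 and Mmp12, few members held much of the count. The top 5% of members held 47.5% of Cd74 UMIs and 87.6% of those of Mmp12, a macrophage elastase, but 14.9% of those of Chil3. Gm42418, Malat1, S100a8, Cxcl2, Spp1, Tmsb4x, Actb, Ccl6 and Crip1 completed the 15 most variable. At least 2 UMIs of core cell cycle genes were held by 4.44% of thinned members (3.54 to 5.50), 5.74% of intermediate cells, 4.26% of reporter-free macrophages and 3.80% of C1q-high macrophages, and these shares were not distinguishable at this depth.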

How the data were processed

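Cells of 4 mice were deposited by the authors as 1 matrix of UMI counts per gene, made with Cell Ranger 3.0.2 on mm10 with GFP and TdTomato added, per the submitters' processing notes. Samples sit in 2 labelled groups, but no cell was tied to a mouse, so the matrix was 1 sample, no group comparison or p-value was possible, and intervals (exact Poisson, binomial or conditional, 95%) cover counting error only. No per-sample columns went unused.

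Counts were summed over the cells of each population and scaled to CPM. Populations were set by UMI rules: C1q-high macrophages held at least 10 C1q UMIs and fewer than 4 of the alveolar markers, monocytes at least 3 UMIs over Lyz2 and Csf1r and at least 3 of classical or non-classical markers, and epithelial cells at least 10 of Sftpc or 4 of Epcam, Krt8, Krt18 and Cldn18. The classical markers were F13a1, Vcan and Ccr2, and the non-classical markers were Ace, Treml4, Adgre4 and Eno3. Genes at 50 CPM or more in either population were compared, and past 2-fold was read after adding 10 CPM. Printed ratios of single genes and of list sums use plain CPM, and median ratios over genes use CPM plus 10. 589 of 590 listed genes were found in the table. Named genes were list members, the 10 with the largest ratio in each direction and the 15 most variable. The members and lists were chosen with earlier results of these data known. Shares of cells were compared after thinning each cell to 2000 UMIs. Doublets were scored with Scrublet (scanpy 1.11.5), which called 181 of 20299 cells, and were kept. Steps were run in Python 3.11.15 with scipy 1.17.1 and tested on simulated data. The table held 58624795 UMIs in 20351 cells, with a median of 1960. Some genes are not reported here.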

Additional observations from a re-analysis of the deposited data

How the results depend on the processing

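No paired analysis was possible because the cells of the 4 mice carry no mouse label, and leaving out each mouse could not be run for the same reason. Of 142 alternative values of the main results, 101 moved by less than their limit and 41 moved by more. Reversal was scored for single genes only. The share of alveolar macrophages with the reporter was 92.9% with a TdTomato minimum of 2 UMIs, 73.5% with 10, 85.3% with 1000 CPM in its place and 89.5% with a marker sum of at least 10, which left 1172 members. Against reporter-free macrophages, the number of genes higher in members was 12 with that marker sum, 3 without Scrublet doublets, 52 in cells thinned to 2000 UMIs, 0 above 200 CPM, 23 with no minimum, 10 with no CPM added and 1 with 50 added. The number lower was 52 when thinned, 10 above 200 CPM, 79 with no minimum and 13 without mixed-lineage cells. Against C1q-high macrophages, 133 genes were higher and 88 lower above 200 CPM, 238 and 173 with 50 CPM added, and 524 lower with no minimum. Against monocytes, 146 were higher and 139 lower above 200 CPM, 816 and 677 with no minimum, and 269 and 256 with 50 CPM added. TdTomato in members stood at 2674 CPM (minimum 2 UMIs), 3057 (minimum 10), 2895 (minimum 1000 CPM), 2652 (marker sum 10), 2928 (without cells above the 98th percentile of genes), 2906 (thinned) and 2839 (cells of 3000 to 10000 UMIs). GFP in members stood at 7.5 CPM when thinned. TdTomato in epithelial cells stood at 3993 CPM without cells above that percentile, 4224 thinned, 3760 in cells of 3000 to 10000 UMIs and 5450 with a rule that left out Epcam. The number of variable genes was 28 at 1000 UMIs and 134 at 4000. Of 321 alternative values of single genes, 3 reversed, all of Igkc, whose log2 ratio was 0.24 without cells above the 98th percentile, 0.52 in cells of 3000 to 10000 UMIs and 0.022 without mixed-lineage cells, each setting leaving out the cell that held most Igkc UMIs. The rules without mixed-lineage cells, without Epcam and without monocytes that held neutrophil RNA were chosen after seeing the data. The 105 reporter-free macrophages set the precision of every comparison with them.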
